A study of Mus musculus with 13 samples.

Results

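The 34 genes described here are commonly read as macrophage genes, and they were followed through 13 libraries of sorted mouse eosinophils. They were taken by symbol from the 41743 genes of the deposited table, and all 34 were found. They comprise 3 genes used to mark alveolar macrophages (Marco, Fabp4, Krt79), 3 used to mark the red pulp macrophages of the spleen (Vcam1, Spic, Cd5l), the 3 chains of complement C1q and 25 others. The rule used names only, no measured value.

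Macrophages take up dying cells, lipid and microbes through families of scavenger, lectin and phosphatidylserine receptors, and each organ holds its own resident kind. Alveolar macrophages of the lung clear surfactant and handle much lipid, whereas red pulp macrophages remove old red blood cells and recycle their iron. Alveolar macrophages also carry Siglec-F, the surface protein by which mouse eosinophils are sorted. Several of these genes are not restricted to macrophages. F4/80, the product of Adgre1, is found on mouse eosinophils, and lysozyme M, the product of Lyz2, is made by neutrophils and monocytes too.

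WT thymus, WT spleen and WT lung each had 3 libraries from wild type mice. Rag-KO + control had 2 thymus libraries taken on day 10 after hamster IgG, replicate 1 from Rag2-/- and replicate 2 from Rag1-/- mice. Rag-KO + anti-CD3 had 2 thymus libraries taken on day 10 after anti-CD3 antibody, both from Rag2-/- mice, and all 4 Rag-KO libraries thus came from mice that cannot rearrange antigen receptor genes. Cells were enriched with Siglec-F and sorted as CD11b+ Siglec-F+ cells that lacked Thy1 and MHC class II. Enzymes freed the cells from thymus and lung, whereas the spleen was pressed apart, and the preparation therefore cannot be told apart from the organ. The sources used here do not say whether replicates were separate mice, and p-values therefore measure only the spread between these libraries.

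Values are RPKM, reads scaled by gene length and by the mapped reads of the library, so levels can be set beside each other between genes. Library totals ran from 4765122 to 6431540 reads. The summed RPKM of 8 eosinophil genes ranged from 1595 to 6442, and none of the 8 was at 0 in any library. WT spleen replicate 3 stood apart, with 22.0% of its RPKM on mitochondrial genes (1.60% to 6.02% elsewhere) and a summed RPKM of 26697 over 9 neutrophil genes, against 33.7 and 52.0 in the other WT spleen libraries. The neutrophil sum was 2445 in WT thymus replicate 3 and 5264 in Rag-KO + control replicate 2. An earlier look at these data had found that these 3 libraries and WT lung replicate 3 deviated together, so the remaining 9 are called the first batch below, although no label names a batch. Rag1 stood at 0.153 and 0.0240 RPKM in Rag-KO + control and at 1.38 and 1.62 in Rag-KO + anti-CD3, and the corresponding Rag2 values were 0.0492 and 0.0925, and 0.222 and 0.0511. Gene-level values do not show whether those reads lie in the deleted part, so they check no label.

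Levels of the 34 genes ran from 0 to 3579 RPKM (Lyz2 in WT lung replicate 3). Their summed RPKM ran from 640.2 in WT thymus replicate 1 to 4826 in WT lung replicate 3. Mean RPKM reached 10 in at least 1 group for 12 of them (Adgre1, Csf1r, Cd68, C1qa, C1qb, C1qc, Clec7a, Cd36, Ly6c2, Chil3, Lyz1 and Lyz2) and 100 for 5. For 9 of them the mean stayed under 1 RPKM in every group. In all 13 libraries 11 were above 0, and 5 of those were at or above 1 RPKM throughout. WT lung replicate 3 held the highest value of 9 of the 34 genes (26.5%), WT spleen replicate 3 of 7 (20.6%), Rag-KO + control replicate 2 of 6 (17.6%) and WT lung replicate 1 of 5 (14.7%). Over the 17067 genes above 0 in any library, the same 4 libraries held the highest value of 8.19%, 10.6%, 15.0% and 6.92%.

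**Figure D1:**
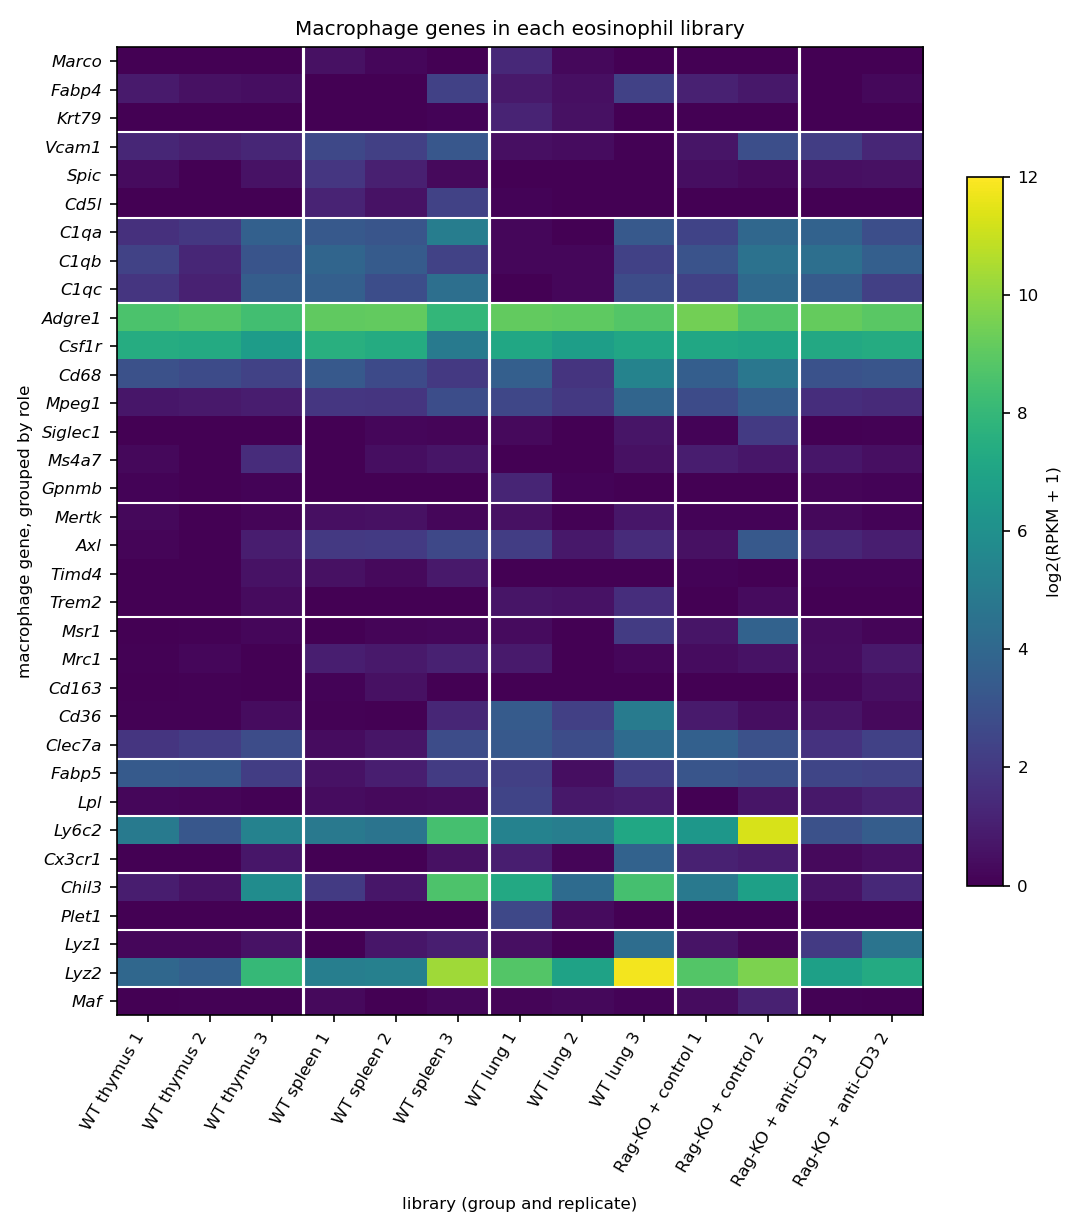
Level of each of the 34 macrophage genes as log2(RPKM + 1) in colour, with genes in rows grouped by role and the 13 libraries in columns grouped by sort. Adgre1 and Csf1r are bright in every column, most rows are near 0, and Lyz2, Chil3 and Ly6c2 are brightest in single libraries such as WT lung replicate 3 (Lyz2, 3579 RPKM) and Rag-KO + control replicate 2 (Ly6c2, 2440.2 RPKM).

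Organ differences were tested with limma on log2(RPKM + 1), and called genes are those with a Benjamini-Hochberg adjusted p under 0.05, over all genes tested, whose log2 fold change also exceeded 1 in either direction. The fold changes understate those of low genes because of the added 1. Of the 34 genes, 15 passed the filter for the WT organs (1 RPKM or more in 3 or more of 9 libraries) and 22 that for all 13 libraries (the same in 2 or more), so most of the low genes below have values but no test. WT thymus was lower than WT spleen for 2 of 15 (Axl, Vcam1) and higher for none, where 2.29% of all 9096 genes were called. WT thymus was lower than WT lung for 1 of 15 (Cd36), where 3.24% of all genes were called. WT lung was lower than WT spleen for 1 of 15 (Vcam1), where 0.704% of all genes were called. With 15 genes, 1 or 2 calls were not set apart from these shares by any test.

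The median log2 fold change of the 15 genes was -1.33 for WT thymus against WT spleen, beside 0.25 over all genes. It was -0.90 against 0.20 for WT thymus against WT lung, and 0.37 against 0.07 for WT lung against WT spleen. At an unadjusted p under 0.05 there were 4, 6 and 6 of the 15, in the same order. In that order the groups compared did not overlap for 4, 4 and 5 of the 15, beside 21%, 30.5% and 10.6% of all genes. These 3 comparisons share libraries in pairs and are not independent of each other.

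The calls depended on the spread between replicates. WT libraries with the same replicate number deviated together, most clearly those numbered 3, and once that number entered as a block the counts became 2 for WT thymus against WT spleen (3.33% of all genes called), 4 for WT thymus against WT lung (Cd36, Chil3, Lyz2 and Mpeg1; 5.08%) and 5 for WT lung against WT spleen (C1qa, C1qc, Cd36, Clec7a and Vcam1; 0.923%). In the first batch alone, with 2 libraries per WT organ, 14 of the 15 genes could be tested, all but Cd36. There the counts were 8 (5.76% of all genes called), 9 (8.38%) and 7 (2.07%) for the 3 comparisons in the same order. These shares of the 14 genes were above the shares of all genes, in a set of libraries chosen with earlier results known, and the excess was not tested. That set left out the libraries already seen to deviate, which narrows the spread within groups. Adjusted p values from the first batch, here and below, therefore describe the libraries kept and add no support to a difference.

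**Figure D2:**
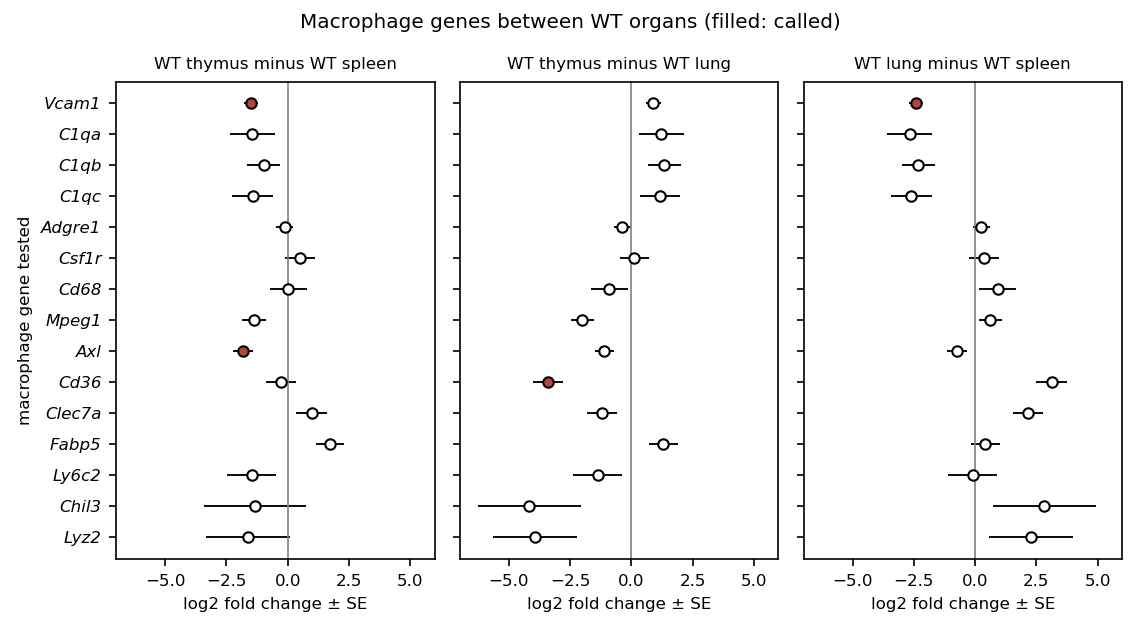
Log2 fold change ± SE from limma on log2(RPKM + 1) for the 15 macrophage genes tested between WT organs, with 3 libraries per organ and filled points for called genes. Filled points are Axl and Vcam1 for WT thymus minus WT spleen, Cd36 for WT thymus minus WT lung, and Vcam1 for WT lung minus WT spleen, while Chil3 and Lyz2 carry the widest bars.

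Of the alveolar genes, Marco and Krt79 were at or near 0 in most libraries and reached at most 1.62 RPKM in the lung, whereas Fabp4 reached 4.01. Marco, a scavenger receptor for inhaled particles, was at 0 in all 3 WT thymus libraries and in all 4 Rag-KO libraries. It measured 0.444, 0.173 and 0 RPKM in WT spleen and 1.62, 0.189 and 0 in WT lung, where the largest value rested on 18 reads. A listed 0 leaves room for 0.242 to 0.327 RPKM of Marco (3 reads), for counting error only.

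Krt79, a keratin gene that alveolar macrophages are known to transcribe, had the same order as Marco within WT lung but not within WT spleen. It measured 1.32, 0.435 and 0 RPKM in WT lung replicates 1, 2 and 3, was at 0.10 in WT spleen replicate 3, and was listed at 0 in the other 9. Plet1, a surface protein also known from alveolar macrophages, measured 5.16, 0.281 and 0 RPKM in WT lung and was listed at 0 in all 10 others. Within the lung, replicate 1 was thus the highest for Marco, Krt79 and Plet1 and replicate 3 was at 0 for all of them.

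Fabp4, a fatty acid carrier of alveolar macrophages and fat cells, did not follow that order. Its values were 0.821, 0.440 and 0.347 RPKM in WT thymus, 0, 0 and 3.98 in WT spleen and 0.773, 0.407 and 4.01 in WT lung. Rag-KO + control had 1.13 and 0.707 and Rag-KO + anti-CD3 had 0 and 0.195 RPKM. The highest libraries were replicate 3 of WT lung and of WT spleen, and the 3 WT organs overlapped. Among the alveolar genes only Fabp4 could be tested, and only between the thymus groups. Its largest log2 fold change there was -0.80 (SE 0.72; Rag-KO + anti-CD3 against Rag-KO + control), and limma gave an adjusted p of 1 in all 3 comparisons.

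Of 8 further alveolar genes, from a list set beside the 34, none was at 0 in WT lung replicate 1, 2 were in replicate 2 and 2 in replicate 3. Atp6v0d2, a proton pump subunit, measured 4.78, 1.01 and 0.139 RPKM in WT lung, Cidec, a lipid droplet protein, 1.21, 0.0982 and 0, and F7, coagulation factor VII, 0.838, 0 and 0, all highest in replicate 1. These 3 were singled out after their values were seen. Of the same list, Pparg (0.473, 0 and 4.95 RPKM) and Olr1 (12.3, 13.5 and 36.7) were instead highest in WT lung replicate 3. Pparg was also named after its values were seen. Of the 34 genes, Gpnmb, a membrane glycoprotein of lipid-laden macrophages, was highest in WT lung replicate 1 (1.35, 0.0791 and 0 RPKM), as was Lpl, lipoprotein lipase (4.52, 0.716 and 0.873 RPKM). Over all 13 libraries Gpnmb ran from 0 to 1.35 and Lpl from 0 to 4.52 RPKM. Lung epithelial transcripts were also present in all 3 WT lung libraries, with a summed RPKM over 4 genes of 26.6 to 110.0, led by Scgb1a1 and Sftpc, and that sum was 45.4 in replicate 2 and highest in replicate 3. The part of carried-over lung RNA in the alveolar values was not tested.

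The best-expressed genes of that further alveolar list did not peak in the lung. Car4, a carbonic anhydrase, measured 79.2, 31.3 and 27.9 RPKM in WT thymus, 0.111, 0 and 0 in WT spleen and 10.9, 1.42 and 8.61 in WT lung. It was higher in WT thymus than in WT spleen (log2 fold change 5.35, SE 0.60, limma adjusted p = 0.00211) and WT lung (2.69, SE 0.60, adjusted p = 0.0409), and Rag-KO + control (0.877 and 0.619 RPKM) was lower than WT thymus (-4.60, SE 0.77, adjusted p = 0.0147). Rag-KO + anti-CD3, at 61.4 and 9.34 RPKM, was not called against WT thymus (-0.73, SE 0.77, adjusted p = 1) or Rag-KO + control (3.87, SE 0.84, adjusted p = 0.144). Olr1, a lectin-like receptor for oxidised lipoprotein, was higher in WT thymus than in WT spleen (2.47, SE 0.49, adjusted p = 0.0321). Ear1, an eosinophil-associated ribonuclease that alveolar macrophages also make, was lower in WT thymus than in WT lung (-3.68, SE 0.85, adjusted p = 0.050, just under the threshold before rounding). Ear1 measured 0.756, 1.08 and 17.5 RPKM in WT thymus, 34.2, 36.2 and 111 in WT spleen and 74.2, 30.7 and 59.0 in WT lung. It was not called lower in WT thymus than in WT spleen, and its highest value was in Rag-KO + control replicate 2 (662 RPKM). Ear1 also belongs to a family of near-identical copies, so its reads may be split among them.

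**Figure D3:**
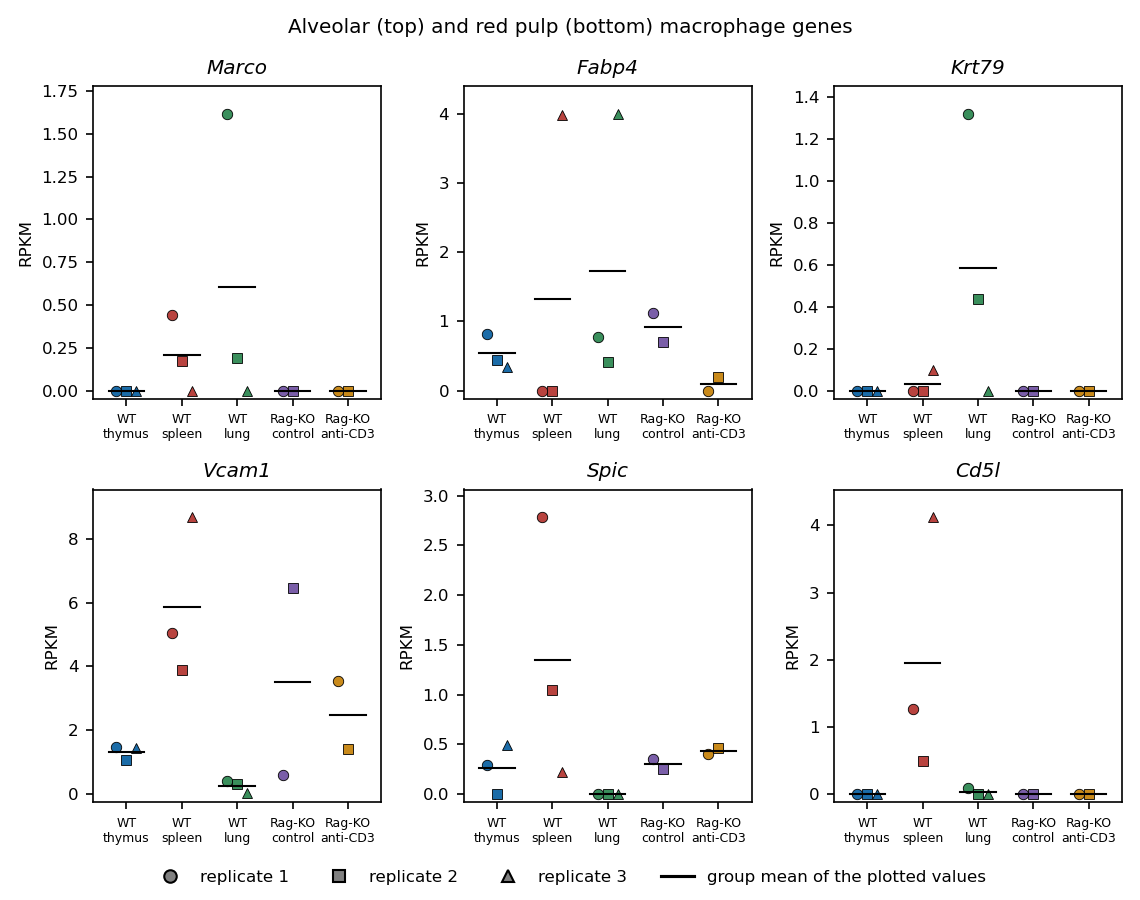
RPKM of the 3 alveolar genes (top) and the 3 red pulp genes (bottom) in each of the 13 libraries, by group, with marker shape for the replicate number and a line for the group mean. Marco and Krt79 rise above 1 RPKM only in WT lung replicate 1, whereas Vcam1 is at 3.87 to 8.68 RPKM in WT spleen and at 0.0370 to 0.407 in WT lung.

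The red pulp genes were present in the spleen libraries at low levels. Vcam1 (chr3:116109949-116129688, minus strand, GRCm38), an adhesion molecule of red pulp macrophages and of activated endothelium, measured 5.06, 3.87 and 8.68 RPKM in WT spleen. It measured 1.48, 1.08 and 1.43 in WT thymus and 0.407, 0.322 and 0.0370 in WT lung. The 3 organs did not overlap, with spleen highest and lung lowest.

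Vcam1 was lower in WT thymus than in WT spleen by limma (log2 fold change -1.5, SE 0.29, adjusted p = 0.0302) and lower in WT lung than in WT spleen (-2.40, SE 0.29, adjusted p = 0.00582). The difference between WT thymus and WT lung did not pass (0.90, SE 0.29, adjusted p = 0.164). When each of the 9 WT libraries was left out in turn, the thymus call held in 3 fits, those that dropped the second or the third WT spleen library or the third WT lung library (adjusted p over the 9 fits 0.0254 to 0.190). The lung call held in 7, and was lost without WT lung replicate 1 or 2 (adjusted p 0.0518 and 0.0592).

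Vcam1 in the Rag-KO thymus varied as much within a group as between groups, at 0.594 and 6.45 RPKM in Rag-KO + control and 3.54 and 1.41 in Rag-KO + anti-CD3. Its log2 fold change was 0.57 (SE 0.54) for Rag-KO + control against WT thymus, 0.51 (SE 0.54) for Rag-KO + anti-CD3 against WT thymus and -0.06 (SE 0.59) between the Rag-KO groups, with a limma adjusted p of 1 in each.

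Spic, the transcription factor that red pulp macrophages need, measured 2.78, 1.05 and 0.220 RPKM in WT spleen, 0.290, 0 and 0.489 in WT thymus and 0 in all 3 WT lung libraries. WT spleen replicates 1 and 2 were the only libraries at or above 1 RPKM, and replicate 3 lay within the WT thymus range. Cd5l, a secreted protein of tissue macrophages also called AIM, was found almost only in spleen, at 1.26, 0.489 and 4.12 RPKM. Those values rested on 15, 6 and 40 reads, WT lung replicate 1 held 1 read (0.0850 RPKM), and the other 9 libraries held none, which allows up to 0.229 to 0.309 RPKM.

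Spic and Cd5l were too low for the test of WT organs. Between the thymus groups, Spic stood at 0.353 and 0.249 RPKM in Rag-KO + control and 0.399 and 0.459 in Rag-KO + anti-CD3, with log2 fold changes of 0.06 to 0.20 (limma adjusted p = 1). Cd5l was at 0 in all 7 thymus libraries. In a bulk sort, fewer cells of a type and less RNA per cell cannot be told apart.

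Spleen replicate 3 was the highest of its group for Vcam1 and Cd5l and the lowest for Spic. In WT spleen without it, Vcam1 was at 5.06 and 3.87 RPKM, still above both other organs. B cell genes also moved with the spleen, with a summed RPKM over 5 genes of 12.5 to 47.2 against 4.41 to 9.85 in the other WT libraries, and Blk was lower in WT thymus than in WT spleen (log2 fold change -1.27, SE 0.19, limma adjusted p = 0.00871). The part of carried-over spleen cells in the red pulp values was not tested.

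Of 5 further red pulp genes, Slc40a1, the iron exporter ferroportin, was the most abundant and did not single out the spleen. It measured 153, 112 and 173 RPKM in WT spleen, 113, 107 and 96.0 in WT thymus and 97.3, 92.0 and 56.3 in WT lung. Rag-KO + control was lower than WT thymus, at 36.2 and 31.0 RPKM (log2 fold change -1.62, SE 0.31, limma adjusted p = 0.0255). Rag-KO + anti-CD3, at 156 and 110 RPKM, was not called against WT thymus (0.32, SE 0.31, adjusted p = 1) or Rag-KO + control (1.94, SE 0.34, adjusted p = 0.0625).

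The 3 C1q chains form the recognition part of the first complement component and are made chiefly by tissue macrophages. Their genes lie side by side on the minus strand of chromosome 4 in GRCm38: C1qb at chr4:136880129-136886187, C1qc at chr4:136889804-136893065 and C1qa at chr4:136895917-136898803. C1qa measured 2.12, 2.84 and 11.8 RPKM in WT thymus, 9.21, 7.98 and 32.9 in WT spleen and 0.166, 0 and 9.27 in WT lung. WT lung replicates 1 and 2 were far below the rest, and replicate 3 was the highest of WT thymus and of WT spleen too.

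All 3 chains were lowest in WT lung replicates 1 and 2. They parted in WT spleen replicate 3, where C1qa and C1qc had their highest values (32.9 and 19.5 RPKM). C1qb was there at 4.24 RPKM, the lowest of its group. The promoters of C1qb and C1qc are shown (RefSeq start sites, GRCm38.p6, minus strand, 5′ to 3′). Each has 300 bases, 250 of them before the start. For C1qc the RefSeq start, at 136892914, lies 151 bases inside the GENCODE gene given above, so part of its window is within that gene. Capitals mark the core letters GAGGAA bound by the macrophage factor PU.1, or their complement TTCCTC. Such a match is a description of letters, not of binding.
C1qb, chr4:136886151-136886450: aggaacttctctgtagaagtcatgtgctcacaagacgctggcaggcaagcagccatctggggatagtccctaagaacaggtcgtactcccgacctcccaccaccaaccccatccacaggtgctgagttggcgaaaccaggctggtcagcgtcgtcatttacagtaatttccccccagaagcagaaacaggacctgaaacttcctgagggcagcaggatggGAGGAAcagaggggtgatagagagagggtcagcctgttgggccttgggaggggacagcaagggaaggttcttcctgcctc
C1qc, chr4:136892865-136893164: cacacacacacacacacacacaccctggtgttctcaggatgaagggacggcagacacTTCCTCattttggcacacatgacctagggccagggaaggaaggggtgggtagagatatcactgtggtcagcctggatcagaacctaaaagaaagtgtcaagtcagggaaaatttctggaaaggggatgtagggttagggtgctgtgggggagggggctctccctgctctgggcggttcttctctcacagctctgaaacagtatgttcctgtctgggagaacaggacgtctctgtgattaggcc
On either strand the 6 letters occurred in 28.3% of all 32851 promoters of this length, and at 1 or more of the listed starts in 11 of the 24 macrophage genes that had one in the table.

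C1qb measured 4.23, 1.45 and 7.72 RPKM in WT thymus, 14.0, 9.77 and 4.24 in WT spleen and 0.159, 0.168 and 4.0 in WT lung. C1qc measured 2.60, 1.15 and 10.6 RPKM in WT thymus, 11.2, 6.07 and 19.5 in WT spleen and 0, 0.152 and 5.97 in WT lung. For both, the lung lay below the spleen without overlap. The C1qb values of WT lung replicates 1 and 2 rested on 1 read each, and those of C1qa on 1 read and none.

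The summed RPKM of the 3 chains was 8.95 and 5.43 in WT thymus replicates 1 and 2 and 30.1 in replicate 3. It was 34.4 and 23.8 in WT spleen replicates 1 and 2 and 56.7 in replicate 3. In WT lung it was 0.326, 0.319 and 19.2, and the third replicate was thus the highest in every WT organ.

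No chain was called between WT organs with all 9 libraries. For WT lung against WT spleen the log2 fold changes were -2.67 (C1qa, SE 0.93), -2.32 (C1qb, SE 0.67) and -2.60 (C1qc, SE 0.83), with limma adjusted p of 0.589, 0.374 and 0.503. With the replicate block 2 of the 3 passed at the same fold change, C1qa (adjusted p = 0.0122) and C1qc (0.0194).

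With the first batch alone all 3 chains were called in all 3 WT comparisons, with WT spleen highest and WT lung lowest. Since the deviating libraries had been left out, the first-batch adjusted p values describe only the libraries kept. Against WT spleen, WT lung was lower by log2 fold changes of -3.15 for C1qa (adjusted p = 7.19e-05), -3.45 for C1qb (5.81e-04) and -3.12 for C1qc (8.93e-04). WT thymus was lower than WT spleen (-1.47, -1.83 and -1.74, adjusted p 0.00210 to 0.00692) and higher than WT lung (1.68, 1.62 and 1.37, adjusted p 7.93e-04 to 0.0148). With all libraries the thymus differences had the same signs (-1.45, -0.97 and -1.44 against spleen; 1.23, 1.35 and 1.16 against lung) at adjusted p of 0.400 to 0.629.

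In the Rag-KO thymus, C1qa measured 4.37 and 15.2 RPKM after control and 12.8 and 6.40 after anti-CD3. C1qb measured 7.27 and 21.8 after control and 20.1 and 11.3 after anti-CD3, and C1qc 3.92 and 15.9 after control and 9.96 and 3.78 after anti-CD3. The 2 groups overlapped for every chain, and no chain was called between these groups or against WT thymus (log2 fold changes -0.33 to 1.74, limma adjusted p 0.716 to 1). In the first batch Rag-KO + anti-CD3 was higher than WT thymus for C1qa (1.55, adjusted p = 0.0235) and C1qb (2.17, adjusted p = 0.0165).

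Genes of MHC class II, which dendritic cells, B cells and many macrophages carry and whose protein the sort selected against, went in the same order in the first batch. Their summed RPKM over 5 genes was 222 and 145 in WT spleen replicates 1 and 2, 33.5 and 47.2 in WT thymus and 26.0 and 8.60 in WT lung. In replicate 3 it was 53.2, 30.6 and 86.0 in spleen, thymus and lung, so the order did not hold there. It was 127 and 119 in Rag-KO + control and 172 and 343 in Rag-KO + anti-CD3. Of the 5 genes, none or 1 was at 0 in each library. With all libraries limma called 0 of the 4 tested in each of the 6 comparisons, and 0 to 4 per comparison had an unadjusted p under 0.05. The part of MHC class II positive cells in the C1q values was not tested.

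**Figure D4:**
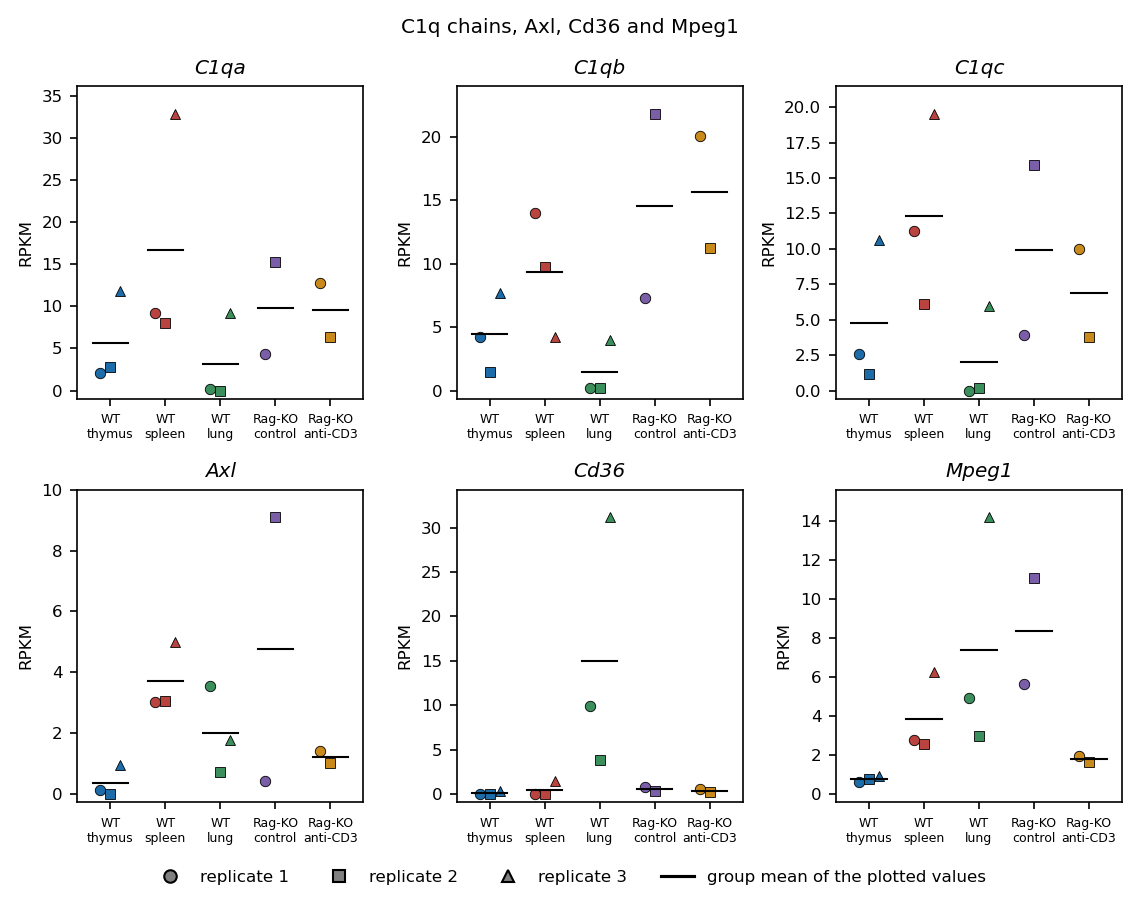
RPKM of C1qa, C1qb, C1qc, Axl, Cd36 and Mpeg1 in each of the 13 libraries, by group, with marker shape for the replicate number and a line for the group mean. The C1q chains are at or below 0.168 RPKM in WT lung replicates 1 and 2, Axl is lowest in WT thymus, and Cd36 is above 3 RPKM in the WT lung libraries alone.

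Among the general surface genes, Adgre1 and Csf1r were abundant in every library. Adgre1 (F4/80, an adhesion receptor) measured 393, 444 and 329.7 RPKM in WT thymus, 545, 558 and 242 in WT spleen and 557, 514 and 441 in WT lung. Rag-KO + control had 707 and 433 and Rag-KO + anti-CD3 had 579 and 486. The lowest value, in WT spleen replicate 3, still rested on 3727 reads. Siglecf, which encodes the sorting marker, ran from 73.4 to 466 RPKM over the same libraries.

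Csf1r, the receptor for the macrophage growth factor CSF1, measured 170.2, 158 and 99.5 RPKM in WT thymus, 189, 165 and 30.0 in WT spleen and 142, 106 and 138 in WT lung. The Rag-KO groups had 141 and 128 and 149 and 167 RPKM. WT spleen replicate 3 was again the lowest, and the other 12 libraries lay between 99.5 and 189. Neither gene was called in any of the 6 comparisons. Log2 fold changes were -0.38 to 0.52 for Adgre1 (limma adjusted p 0.722 to 1) and -0.04 to 0.50 for Csf1r (0.764 to 1).

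Cd68, a sialomucin of late endosomes, measured 6.88, 5.80 and 4.08 RPKM in WT thymus, 9.25, 5.42 and 3.01 in WT spleen and 11.6, 2.47 and 39.7 in WT lung. Rag-KO + control had 11.0 and 26.1 and Rag-KO + anti-CD3 had 7.26 and 8.08. WT lung replicate 3 and Rag-KO + control replicate 2 were highest. Its log2 fold changes were -1.06 to 1.47, and no comparison called it (limma adjusted p 0.677 to 1).

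Mpeg1 encodes perforin-2, a pore-forming protein of phagocytes, at chr19:12460779-12465283 (plus strand, GRCm38). It measured 0.637, 0.772 and 0.933 RPKM in WT thymus, 2.76, 2.57 and 6.25 in WT spleen and 4.91, 2.99 and 14.2 in WT lung. Rag-KO + control had 5.63 and 11.0 and Rag-KO + anti-CD3 had 1.93 and 1.66. WT thymus lay below every other group without overlap.

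Mpeg1 missed the threshold in the full fits, and it is described here because the block or the first batch called it. WT thymus against WT lung gave a log2 fold change of -2.0 (SE 0.48, limma adjusted p = 0.0584) and WT thymus against WT spleen -1.37 (SE 0.48, 0.270). Rag-KO + control against WT thymus gave 2.33 (SE 0.51, 0.0559). With the replicate block WT thymus was lower than WT lung (adjusted p = 0.0131). The first batch put WT thymus below WT lung (-1.51, adjusted p = 0.00237) and WT spleen (-1.11, 0.0157), and Rag-KO + control, there 1 library, was higher than WT thymus (1.96, 0.00260).

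The other general surface genes were low. Siglec1, the sialic acid receptor CD169, ran from 0 to 3.13 RPKM and was above 1 RPKM only in Rag-KO + control replicate 2, on 141 reads. Ms4a7, a membrane protein of resident macrophages, ran from 0 to 1.89 and was highest in WT thymus replicate 3.

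Of 11 further general macrophage genes, those with the highest means were Tyrobp and Fcer1g, which encode signalling adaptors, Cst3 (cystatin C) and Lgals3 (galectin-3). Of the 10 tested between WT organs and the 11 tested in the Rag-KO comparisons, limma called 0 with all libraries, and 0 to 3 per comparison had an unadjusted p under 0.05. Tyrobp ran from 1148 to 4088 RPKM and was highest in WT lung replicate 3. The same library held the highest value of Apoe, Cd14 and Cst3 (122, 47.3 and 1034 RPKM). Apoe and Cd14 were singled out after their values were seen.

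Receptors for dying cells were led by Axl, a tyrosine kinase that binds phosphatidylserine through Gas6 (chr7:25757273-25788705, minus strand, GRCm38). Axl measured 0.129, 0 and 0.944 RPKM in WT thymus, 3.04, 3.06 and 5.0 in WT spleen and 3.56, 0.724 and 1.77 in WT lung. WT thymus and WT spleen did not overlap, whereas WT lung reached into both. Axl was lower in WT thymus than in WT spleen by limma (log2 fold change -1.83, SE 0.40, adjusted p = 0.0494).

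That call was close to the threshold. It held in 2 of the 9 fits that left out 1 WT library, those without WT lung replicate 1 or 2 (adjusted p over the 9 fits 0.0442 to 0.272), with the block (0.0249) and in the first batch (-1.93, adjusted p = 0.0102). WT thymus against WT lung gave -1.10 (SE 0.40, adjusted p = 0.220) with all libraries and -1.40 (adjusted p = 0.0289) in the first batch.

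Axl in the Rag-KO thymus was 0.432 and 9.10 RPKM after control and 1.42 and 1.02 after anti-CD3. Rag-KO + control replicate 2 held the highest value of all 13 libraries. Without Rag-KO + control replicate 1, the log2 fold change of Axl in the remaining control library against WT thymus was 2.96. That group then held 1 library, with no spread of its own. With both control libraries Axl was not called against WT thymus (1.55, SE 0.67, limma adjusted p = 0.572).

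Mertk, the related kinase by which many resident macrophages take up dying cells, stayed under 1 RPKM in every library (0 to 0.659). Timd4, a phosphatidylserine receptor of resident macrophages, also stayed under 1 (0 to 0.773) and was above 0 in all 3 WT spleen and in no WT lung library. Trem2, a lipid receptor, ran from 0 to 1.98 RPKM, was above 0 in all 3 WT lung libraries and was listed at 0 in WT spleen. Maf, a transcription factor of resident macrophages, ran from 0 to 1.15 RPKM and passed 1 only in Rag-KO + control replicate 2.

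Cd36, a scavenger receptor for oxidised lipid that alveolar macrophages and endothelium carry, was highest in the WT lung libraries (chr5:17781690-17888801, minus strand, GRCm38). It measured 9.93, 3.86 and 31.2 RPKM in WT lung, on 206, 76 and 592 reads. It measured 0.0512, 0.0548 and 0.303 in WT thymus and 0.0477, 0 and 1.46 in WT spleen, on 1 to 7 and 0 to 25 reads. Every WT lung library was above all 10 others, and replicate 3 was the highest.

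Cd36 was lower in WT thymus than in WT lung by limma (log2 fold change -3.40, SE 0.62, adjusted p = 0.0152). It held in 5 of the 9 fits that left out 1 WT library, and was lost without any 1 of the 3 WT thymus libraries or without WT lung replicate 1 (adjusted p 0.0644 to 0.0959). Against WT spleen, WT lung gave 3.12 (SE 0.62, adjusted p = 0.0678), which passed with the replicate block (0.0129). In the Rag-KO groups Cd36 was at 0.797 and 0.353 and 0.530 and 0.244 RPKM and was not called (-0.18 to 0.46, adjusted p = 1).

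Endothelial genes moved with the lung as well. None of 4 was at 0 in any WT lung library, and Eng, an endothelial coreceptor, was higher in WT lung than in WT spleen (log2 fold change 1.77, SE 0.21, limma adjusted p = 0.00531). Their summed RPKM did not follow the lung, at 14.2 to 30.6 there, 11.8 to 38.1 in WT thymus and 1.49 to 21.9 in WT spleen. The part of endothelial RNA in the Cd36 values was not tested.

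Clec7a (dectin-1, the receptor for fungal glucan) measured 2.57, 3.36 and 5.85 RPKM in WT thymus, 0.299, 0.581 and 5.87 in WT spleen and 9.08, 5.90 and 17.4 in WT lung. Rag-KO + control had 11.8 and 6.99 and Rag-KO + anti-CD3 had 2.33 and 3.98. WT lung lay above WT spleen and WT thymus without overlap, but only just. Its lowest value was 5.90 RPKM, beside a highest of 5.87 in WT spleen and 5.85 in WT thymus. The 6 log2 fold changes ran from -1.31 to 2.17, and none was called with all libraries (limma adjusted p 0.374 to 1).

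For Clec7a the block called WT lung against WT spleen (2.17, adjusted p = 0.0375). The first batch called WT lung above WT spleen (2.54, 6.08e-04) and WT thymus between them (1.46 above WT spleen, 0.00433; -1.08 against WT lung, 0.0135). In the first batch the single Rag-KO + control library was above WT thymus (1.69, adjusted p = 0.0131), and Rag-KO + anti-CD3 was lower than that library (-1.65, 0.0310).

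Msr1, the type A scavenger receptor, ran from 0 to 12.6 RPKM and passed 1 only in WT lung replicate 3 (3.26) and Rag-KO + control replicate 2 (12.6). Mrc1, the mannose receptor, ran from 0 to 1.17 and was highest in WT spleen replicate 3, and all 3 WT spleen libraries were above the 3 of WT thymus. Cd163, the receptor for haemoglobin with haptoglobin that red pulp macrophages carry, stayed under 1 RPKM (0 to 0.444) and was listed at 0 in all WT lung libraries.

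Fabp5, an epidermal type fatty acid carrier, was highest in a WT thymus library, as of the 34 genes only Ms4a7 was too. It measured 9.51, 8.98 and 3.47 RPKM in WT thymus, 0.520, 1.01 and 3.19 in WT spleen and 3.86, 0.369 and 3.64 in WT lung, and 7.84 and 6.74 and 4.62 and 4.08 in the Rag-KO groups. WT thymus and WT spleen did not overlap. With all libraries limma did not call it between WT organs (log2 fold change 1.73, SE 0.58, adjusted p = 0.248 against spleen). The Dunnett comparison of RPKM on the same libraries, which is not adjusted over genes, did call it against spleen and not against lung. Within the first batch it was higher in WT thymus than in WT spleen (2.55, 0.00677) and WT lung (1.99, 0.0152).

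Ly6c2, a marker of classical monocytes, varied widely within groups. It measured 29.0, 8.62 and 39.2 RPKM in WT thymus, 27.8, 23.9 and 349 in WT spleen and 39.3, 34.0 and 142 in WT lung. Rag-KO + control had 79.7 and 2440.2 and Rag-KO + anti-CD3 had 6.79 and 10.7. Rag-KO + control replicate 2 exceeded every other library, and WT spleen replicate 3 came next. Ly6c2 has a close neighbour copy, Ly6c1, so its reads may be split between them.

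For Ly6c2 the log2 fold changes were 4.29 (SE 1.37, limma adjusted p = 0.257) for Rag-KO + control against WT thymus and -5.54 (SE 1.5, 0.305) for Rag-KO + anti-CD3 against Rag-KO + control. Within the first batch, and so with the Rag2-/- control library alone, they were smaller and were called (2.25, adjusted p = 0.0295, and -3.08, 0.0161). The other 4 comparisons gave -1.48 to -0.10 (0.616 to 1). Cx3cr1, the receptor of patrolling monocytes and many resident macrophages, ran from 0 to 12.7 RPKM and was highest in WT lung replicate 3 on 302 reads.

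Ccr2, the receptor that brings monocytes out of the marrow and 1 of a further list of monocyte genes, measured 20.4 RPKM in Rag-KO + control replicate 2, 9.59 in WT spleen replicate 3 and 7.66 in WT lung replicate 3. It was at 0.0983 to 2.54 in the other 10, and was singled out after its values were seen.

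Chil3 (the chitinase-like protein Ym1, made by alveolar macrophages and neutrophils) measured 0.956, 0.512 and 55.7 RPKM in WT thymus, 3.11, 0.647 and 395 in WT spleen and 149, 17.2 and 355 in WT lung. Rag-KO + control had 28.0 and 112 and Rag-KO + anti-CD3 had 0.494 and 1.59. The third replicate was the highest in each WT organ, and WT lung replicate 1 was high as well. Its log2 fold changes ran from -4.86 to 3.37 with SE of 2.10 to 2.35, and none was called (limma adjusted p 0.405 to 1).

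For Chil3, WT thymus was lower than WT lung with the replicate block (-4.17, adjusted p = 0.0337) and in the first batch (-4.93, 0.00242). The first batch also put WT lung above WT spleen (4.33, 0.0185) and Rag-KO + control above WT thymus (4.08, 0.0367).

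Lyz1 and Lyz2, the neighbouring lysozyme genes on chromosome 10, are alike enough that reads may be shared between them. Their coding sequences have 444 bases each with 22 differences (95.0% identity) and share an identical run of 118 bases. A stretch of 120 coding bases that holds 14 of the differences (positions 37 to 156 from the start codon, GRCm38, 5′ to 3′, differences in capitals) is shown for each.
Lyz1: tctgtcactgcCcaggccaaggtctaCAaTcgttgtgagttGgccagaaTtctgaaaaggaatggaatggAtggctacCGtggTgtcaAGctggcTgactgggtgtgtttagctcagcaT
Lyz2: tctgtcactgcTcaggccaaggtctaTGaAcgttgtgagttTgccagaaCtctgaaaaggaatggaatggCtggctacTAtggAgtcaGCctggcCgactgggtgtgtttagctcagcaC

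Lyz2 was the member with the highest value of all. It measured 15.2, 11.8 and 262 RPKM in WT thymus, 34.2, 36.2 and 1248 in WT spleen and 446, 119 and 3579 in WT lung. Rag-KO + control had 439 and 793 and Rag-KO + anti-CD3 had 110.2 and 163. The third replicate was far above the other libraries of its organ in all 3 WT organs, and the organs overlapped.

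For Lyz2 no comparison was called with all libraries (log2 fold changes -3.92 to 3.96, SE 1.71 to 1.89, limma adjusted p 0.319 to 1). WT thymus was lower than WT lung with the block (-3.92, SE 0.41, adjusted p = 0.00243) and in the first batch (-4.0, adjusted p = 3.53e-04). There WT lung was above WT spleen (2.68, 0.0148), and both Rag-KO + control (4.93, 0.00113) and Rag-KO + anti-CD3 (3.23, 0.00988) were above WT thymus.

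Lyz1 was low except in 3 libraries, namely WT lung replicate 3 (18.7 RPKM) and Rag-KO + anti-CD3 (3.16 and 23.3). The other 10 ran from 0 to 1.0. Rag-KO + anti-CD3 against WT thymus gave a log2 fold change of 3.0 (SE 1.05, limma adjusted p = 1) with all libraries and 3.13 (adjusted p = 0.0365) in the first batch. Against Rag-KO + control it gave 2.94 (SE 1.15, 0.733), and Rag-KO + control against WT thymus gave 0.07 (SE 1.05, 1). Its values went with those of Lyz2 in WT lung replicate 3 but not in WT spleen replicate 3, where Lyz2 was 1248 and Lyz1 0.997 RPKM.

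Neutrophil genes moved with Lyz2, Chil3 and Ly6c2 in some libraries. WT spleen replicate 3, high for all 3, had the neutrophil sum of 26697 RPKM given above, led by S100a8 and S100a9 (18344 and 3614 RPKM). WT lung replicate 3, highest for Lyz2, had a neutrophil sum of 763 RPKM beside 386 and 543 in the other WT lung libraries. S100a8 and S100a9 led that sum (404 and 352 RPKM). Elane and Mpo, genes of immature granulocytes, were at 0 in all 3 WT lung libraries (Mpo singled out after its values were seen). They stood at 1000 and 99.5 RPKM in WT spleen replicate 3 and at 1002 and 501 in Rag-KO + control replicate 2. In Rag-KO + control replicate 2, highest for Ly6c2, the neutrophil sum was 5264 beside 1009 in replicate 1, and that library also held the highest Prg2 and Epx (3648 and 340.3 RPKM), granule genes of young eosinophils. The part of other cell types in these values was not tested.

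**Figure D5:**
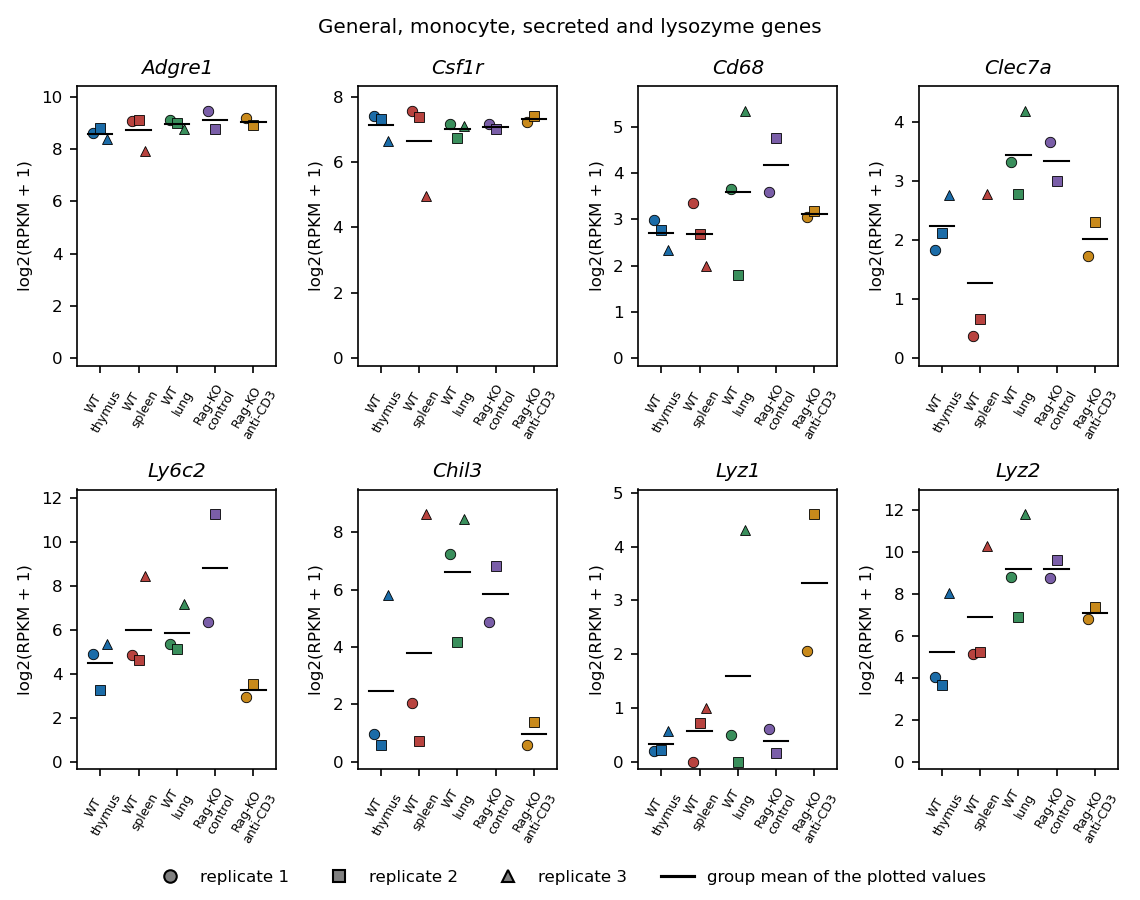
Level as log2(RPKM + 1) of 8 macrophage genes with a mean of at least 10 RPKM in some group, in each of the 13 libraries, with marker shape for the replicate number and a line for the group mean of the plotted values. Adgre1 and Csf1r are near level apart from WT spleen replicate 3, whereas Ly6c2, Chil3 and Lyz2 are highest in replicate 3 of the WT organs (Ly6c2 closely in WT thymus, Chil3 in WT lung beside replicate 1) and Ly6c2 peaks in Rag-KO + control replicate 2.

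In the Rag-KO comparisons no macrophage gene was called with all 13 libraries. Rag-KO + control against WT thymus called 0 of 22 genes, where 1.09% of all 9763 genes were called, and 5 of 22 had an unadjusted p under 0.05. Rag-KO + anti-CD3 against Rag-KO + control called 0 of 22 (0.133% of all genes), with 4 at an unadjusted p under 0.05. Rag-KO + anti-CD3 against WT thymus called 0 of 22 (0.0819% of all genes), with 2 at an unadjusted p under 0.05. In the same order the groups compared did not overlap for 8, 14 and 8 of the 22, beside 25%, 41.5% and 29.3% of all genes.

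The median log2 fold change of the 22 genes was 0.78 for Rag-KO + control against WT thymus, beside 0.00 over all genes. It was -0.46 beside -0.03 for Rag-KO + anti-CD3 against Rag-KO + control, and 0.35 beside -0.01 for Rag-KO + anti-CD3 against WT thymus. The first 2 comparisons share the control libraries and the last shares a group with each. From the first batch 19 genes could be tested, and Rag-KO + control had 1 library, assumed to vary like the other groups. There 5 (4.36% of all genes called), 2 (1.75%) and 4 (1.4%) of 19 were called, in the same order, as named gene by gene above.

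Rag-KO + control thus held 1 library per genotype, and the genotype and the library cannot be told apart. Its replicate 2, from Rag1-/- mice, was above replicate 1 for Ly6c2, Msr1, Axl, Siglec1, Vcam1 and all C1q chains, and replicate 1 was above it for Adgre1, Csf1r, Clec7a and Fabp5. Lyz2 and Mpeg1 were high in both, and both were above all 3 WT thymus libraries for these 2 genes.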

How the data were processed

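Expression was measured in 13 libraries of sorted eosinophils, with SMART-seq amplification and Ion Proton reads. The deposited values are RPKM, which the authors computed in CLC Genomics Workbench (genome build mm10, per the submitters' processing notes), with 1 column per library. How reads were mapped and counted is not given in the sources used here, so near copies of a gene may share reads.

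Library totals were recovered from the RPKM steps with GENCODE vM21 gene lengths (GRCm38). Those lengths gave whole reads throughout, to within 0.01, for 5951 of the 17067 genes above 0, including 15 of the 34 macrophage genes, and reads are quoted only for these. The upper limit for a 0 is 3 reads and covers counting error only, since no molecular identifiers were used.

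Groups came from the sample labels. Tests used limma 3.58.1 (R 4.3.3; trend on) with log2(RPKM + 1) as the response and Benjamini-Hochberg adjustment. WT organs were fitted with 9 libraries (9096 genes, 6 residual degrees of freedom) and Rag-KO groups with all 13 (9763 genes, 8). The fit was tested on simulated data. The macrophage genes and the lists were chosen with earlier results of these data known.

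Values in every library are given for the alveolar, red pulp and C1q genes, for called genes and for genes with a mean of at least 10 RPKM in a group, with fold changes where tested. Other macrophage genes are given by range. From further lists, the called genes and up to 4 with the highest means are named, except 1 item that is not reported here. Mpeg1, Fabp5, Plet1, Gpnmb, Lpl, Mpo and Epx were described beyond this rule after their values were seen.

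Nothing in the labels or methods ties WT replicate numbers to animals, so pairing was checked from the data. Deviations from the group mean correlated at 0.31 to 0.58 for the 9 pairs of WT libraries with the same number and at -0.54 to 0.42 for the 18 with different numbers. Among replicates 1 and 2 alone the ranges were 0.31 to 0.51 and 0.26 to 0.42, so most of the contrast comes from replicate 3. Promoters are from RefSeq (GRCm38.p6). Alternatives were other pseudocounts and filters, upper-quartile scaling, quantile normalization, no trend, no fold limit, other libraries in the fit, the Dunnett comparison, the replicate block, the first batch alone and leaving out each library.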

Additional observations from a re-analysis of the deposited data

How the results depend on the processing

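For the 40 single-gene fold changes called in at least 1 fit, none of 793 alternatives reversed the direction, with 702 on the same side of the threshold, 32 that lost a call and 59 that gained one. The 40 were picked by a call in these same fits, which made a reversal unlikely from the start. Of 612 alternatives to 170 group means, 609 moved by at most 1 SD. Most of them left out 1 library, which cannot move a mean of 2 or 3 libraries by 1 SD. That count therefore does not show how far a mean rests on a single library. For WT thymus against WT spleen the 2 calls fell to 0 with a pseudocount of 0.1 or 5, no filter, a minimum RPKM of 5, upper-quartile scaling, quantile normalization or all 13 libraries in the fit, and to 1 without a trend, while the Dunnett comparison gave 3 (Axl, Fabp5 and Vcam1). For WT thymus against WT lung 1 call became 2 with a pseudocount of 0.1 or all 13 libraries, and 0 with a minimum RPKM of 5 or the Dunnett comparison. For WT lung against WT spleen 1 call became 0 with a minimum RPKM of 5 and 2 with all 13 libraries. For Rag-KO + control against WT thymus 0 calls became 1 (Mpeg1) with a pseudocount of 0.1 or the 7 thymus libraries alone. The first batch alone gave 8, 9, 7, 5, 2 and 4 calls in the 6 comparisons. Which step of each alternative moves a call was not tested, apart from the fewer genes left by a stricter filter.

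Leaving out 1 library at a time gave 0 to 1, 0 to 2 and 0 to 3 calls for WT thymus against WT spleen, WT thymus against WT lung and WT lung against WT spleen. It gave 0 to 3 for Rag-KO + control against WT thymus (3 without Rag-KO + control replicate 1), 0 to 2 for Rag-KO + anti-CD3 against Rag-KO + control (2 without the same library) and 0 to 0 for Rag-KO + anti-CD3 against WT thymus. A lone library was assumed to vary like the other groups. With the replicate block the WT counts were 2, 4 and 5. The Rag-KO and WT thymus libraries share only a number, and the block there gave 4 calls for Rag-KO + control against WT thymus (Chil3, Ly6c2, Lyz2 and Mpeg1) and 0 in both other comparisons. Scaling by the upper quartile moved the median of all genes from 0.25 to 0.08 for WT thymus against WT spleen and from 0.20 to 0.01 against WT lung. Of all tested macrophage fold changes, 2 of 105 changed sign under the upper quartile (Cd68 and Csf1r) and 4 of 111 under quantile normalization (Cd68, Spic, Lyz1 and Adgre1), each at most 0.12 in size before the scaling. Low genes such as Marco, Cd5l and, in WT lung, C1qb rest on the few reads given with them.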
